A study of Homo sapiens with 8 samples.

Results

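The splicing response of control JSL1 cells to PMA was described for every local splicing variation listed both without and with the treatment. A local splicing variation (LSV) is a set of junctions, and sometimes an intron, that all leave 1 exon (a source LSV) or all enter 1 exon (a target LSV), and each of its choices has a share of the LSV. LSVs were kept where their identifier and all their junction positions were the same in both of the authors' deposited tables. This left 87517 LSVs, out of 91480 listed for unstimulated and 91729 for PMA-treated cells, in 10517 gene IDs. LSVs that describe the same exon, intron or set of junctions were merged, which gave 78874 events.

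JSL1 cells are a clone of Jurkat, the human leukaemic T cell line, so all values come from 1 clone. Control cells were either unstimulated or kept for 48 hours in medium with 20 ng/mL of the phorbol ester PMA, with 2 libraries of polyadenylated RNA for each of these groups. Another 4 libraries, in 2 groups of 2, came from cells under the same 2 conditions that carried doxycycline-inducible hairpin RNAs against CELF2, stably integrated by lentivirus. They are given beside the control cells, share no library with them and are not replicates of them. The sources used here do not say whether a hairpin or doxycycline was also present in the control cells. Each share is the authors' single value for a group, with its 2 libraries combined, so no spread between libraries, read depth or test can be given for any event, and whether the 2 libraries are separate cultures is not stated. Of 15 T cell markers, 12 had an LSV in both tables, and of 19 markers of other lineages 1 did (CD79A). The tables hold no expression values, so this is as far as the cell type could be checked.

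PMA stands in for diacylglycerol, the lipid second messenger made after T cell receptor engagement, and activates protein kinase C and the Ras exchange factor RasGRP1. In T cells this signal reaches the MAP kinase and NF-kappaB pathways and, among other things, changes which exons are used. The best studied case is CD45, the phosphatase encoded by PTPRC, whose variable exons are skipped more in activated cells. Such choices are set by proteins that bind pre-mRNA, among them the SR proteins, the hnRNPs and the CELF family, and some of these proteins are themselves spliced differently after activation.

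An event was counted as past the size where its share in PMA-treated control cells was 20 percentage points or more above or below that in unstimulated control cells. Of 78874 events, 2132 (2.7%) were past it, 1016 with a higher (1.29%) and 1116 with a lower share (1.41%). They lay in 1508 of 10500 genes (14.4%). Most events hardly differed: the median difference was 0.0 points, and 76.7% of events were within 5 points. Just inside the size, between 20 and 21 points, lay 286 events, and just outside, between 19 and 20, lay 301. Shares in the tables run from 2.5% to 97.5%, so an event that starts near either end can move in 1 direction only.

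The event classes differed in how often they passed, and their order was another among events at middle levels without PMA, as given further on. Among 19574 cassette exons, which are either included or skipped, 289 (1.48%) passed, 175 with higher (0.894%) and 114 with lower inclusion (0.582%). Of 1910 pairs of alternative 5' splice sites 28 (1.47%) passed, 16 with the longer exon used more (0.838%) and 12 with it used less (0.628%). Of 3178 pairs of alternative 3' sites 15 (0.472%) passed, 9 with the longer exon used more (0.283%) and 6 less (0.189%). Of 9029 introns that were either retained or removed, 186 (2.06%) passed, 79 with higher (0.875%) and 107 with lower retention (1.19%). Other LSVs of 2 choices, which include alternative first and last exons, gave 103 of 7746 (1.33%), 50 higher (0.645%) and 53 lower (0.684%). LSVs of 3 or more choices without an intron gave 944 of 24951 (3.78%), 453 higher (1.82%) and 491 lower (1.97%). Those with an intron gave 567 of 12486 (4.54%), 234 higher (1.87%) and 333 lower (2.67%). For these LSVs the value is that of the junction or intron with the largest difference. This makes it more likely to pass than the value of any 1 junction, and its direction says only which choice moved most. Their choices may also include alternative first or last exons, which were not told apart from other choices.

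**Figure D1:**
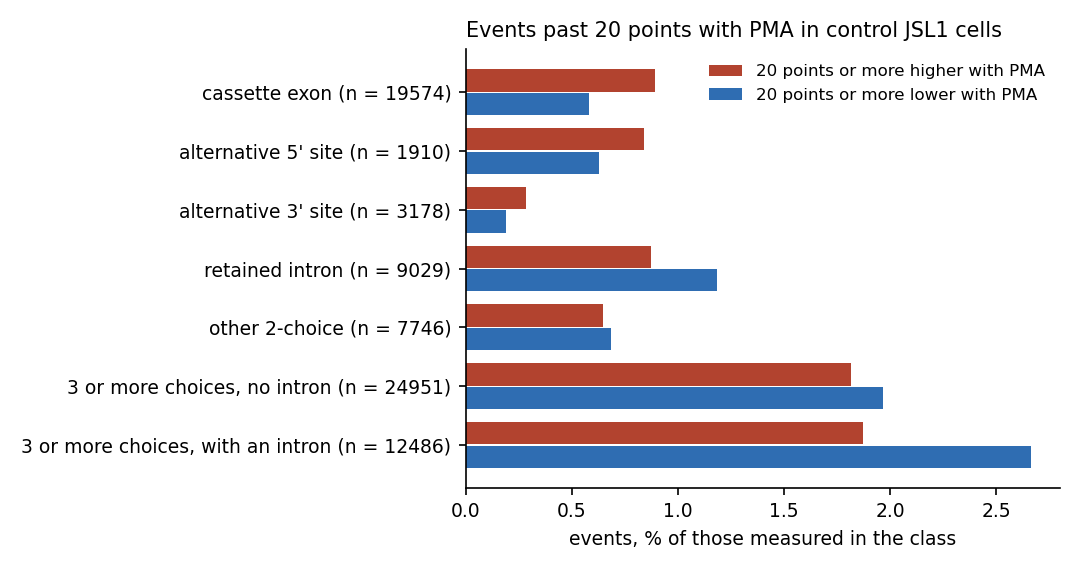
Events with a share at least 20 percentage points higher (red) or lower (blue) in PMA-treated than in unstimulated control cells, as a percentage of the events measured in each class (n beside the class). More cassette exons were higher (175) than lower (114), and more retained introns were lower (107) than higher (79).

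Events that were higher and events that were lower started from different levels. Cassette exons had a median inclusion of 94.5% without PMA over all that were measured, 35.5% over those past the size with higher inclusion and 75% over those with lower inclusion. Retained introns had a median retention of 7.6% over all measured, 32.8% over those that were higher and 76.8% over those that were lower. Restricted to introns between 20% and 80% without PMA, 62 were higher and 60 lower. Of cassette exons in that range, 104 were higher and 63 lower. Over all events in that range 14.6% passed. The share was 16.4% for cassette exons, 16.4% for other 2-choice LSVs and 12.9% for retained introns. It was 16.0% for LSVs of 3 or more choices without an intron and 13.8% for those with one. For alternative 5' sites it was 9.64%, and for alternative 3' sites 4.14%.

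Cassette exons were described first for those whose difference could be read both in the LSV of the exon before and in the LSV of the exon after. Both LSVs were listed for 3811 exons. In 39 of these (1.02%) each LSV passed 20 points in the same direction, 21 with higher (0.551%) and 18 with lower inclusion (0.472%). Over all 3811 exons, whether or not they differed with PMA, the 2 differences lay a median of 0.1 points apart, and 6.1 points at the 95th percentile. Of 61 exons past 20 points in the source LSV, 39 passed the same way in the target LSV. Of 54 past it in the target LSV, 39 did so in the source LSV. The 2 LSVs share the skipping junction, so their agreement leaves out part of the error. Over all 19574 cassette exons the differences ran from -65.9 to 73.1 points, but 15763 of them had 1 LSV, and some of these may be alternative first or last exons.

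Among protein-coding genes, the 12 largest differences with higher inclusion were led by NEK1, a NIMA-related kinase that acts at cilia and in the DNA damage response. Its 132-nucleotide exon (hg19, chr4:170476871-170477002, minus strand) was included at 40.6% without and 88.1% with PMA, and in CELF2-depleted cells at 32.9% and 50.1%. DHX34, a helicase that takes part in nonsense-mediated decay, included a 75-nucleotide exon at 46.7% without and 91.0% with PMA. In ZDHHC21, a palmitoyltransferase, inclusion was 15% and 57.6%, against 31.4% and 32.5% in depleted cells. MYO5A, a myosin that carries vesicles along actin, included its exon at 66.9% without and 94.0% with PMA, and at 36.7% and 56.0% in depleted cells.

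The other 8 of these exons had differences of 26.6 to 41.8 points. They lay in C1orf52, in EFNA3 (an ephrin ligand), in the ubiquitin ligases UBR3 and SMURF2, in ENTHD2, in CRAMP1L, in SLC2A8 (a sugar transporter) and in TRIM46. EFNA3 stood at 42% without and 72.2% with PMA, and UBR3 at 66.8% and 96.2%. SMURF2, which targets proteins of TGF-beta signalling, stood at 13.8% and 40.8%. In depleted cells TRIM46 differed the other way, with 64.3% without and 53.0% with PMA, against 56.0% and 82.6% in control cells.

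Among exons with lower inclusion SLMAP stood first. SLMAP is a tail-anchored membrane protein and part of a phosphatase complex that acts on Hippo signalling. Its 90-nucleotide exon (hg19, chr3:57911572-57911661, plus strand) was included at 88.7% without and 22.8% with PMA in control cells. In depleted cells it stood at 84.1% and 83.3%. GRK4, a kinase of G protein-coupled receptors, followed with 88.8% and 48.8%, and PKD2, the calcium channel polycystin-2, with 79.8% and 41.5%.

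The other 8 lower exons had differences of -25.5 to -31.7 points. Several belong to genes known from cilia and centrosomes: CSPP1 (92.3% without and 62.3% with PMA), CEP290 (90.1% and 61.4%), TTC8 (95% and 67.2%) and DZIP1 (31.7% and 6.0%). No list of such genes had been set up, so their number was not compared with a background. SYNE1, which links the nucleus to the cytoskeleton, stood at 91.8% and 60.1%, and the nuclear receptor coactivator NCOA5 at 88.2% and 56.6%. FRYL stood at 32.2% and 4.6%. COL4A3BP, the ceramide transporter, included a 78-nucleotide exon at 29.3% without and 3.8% with PMA, and at 24.5% and 20.2% in depleted cells.

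**Figure D2:**
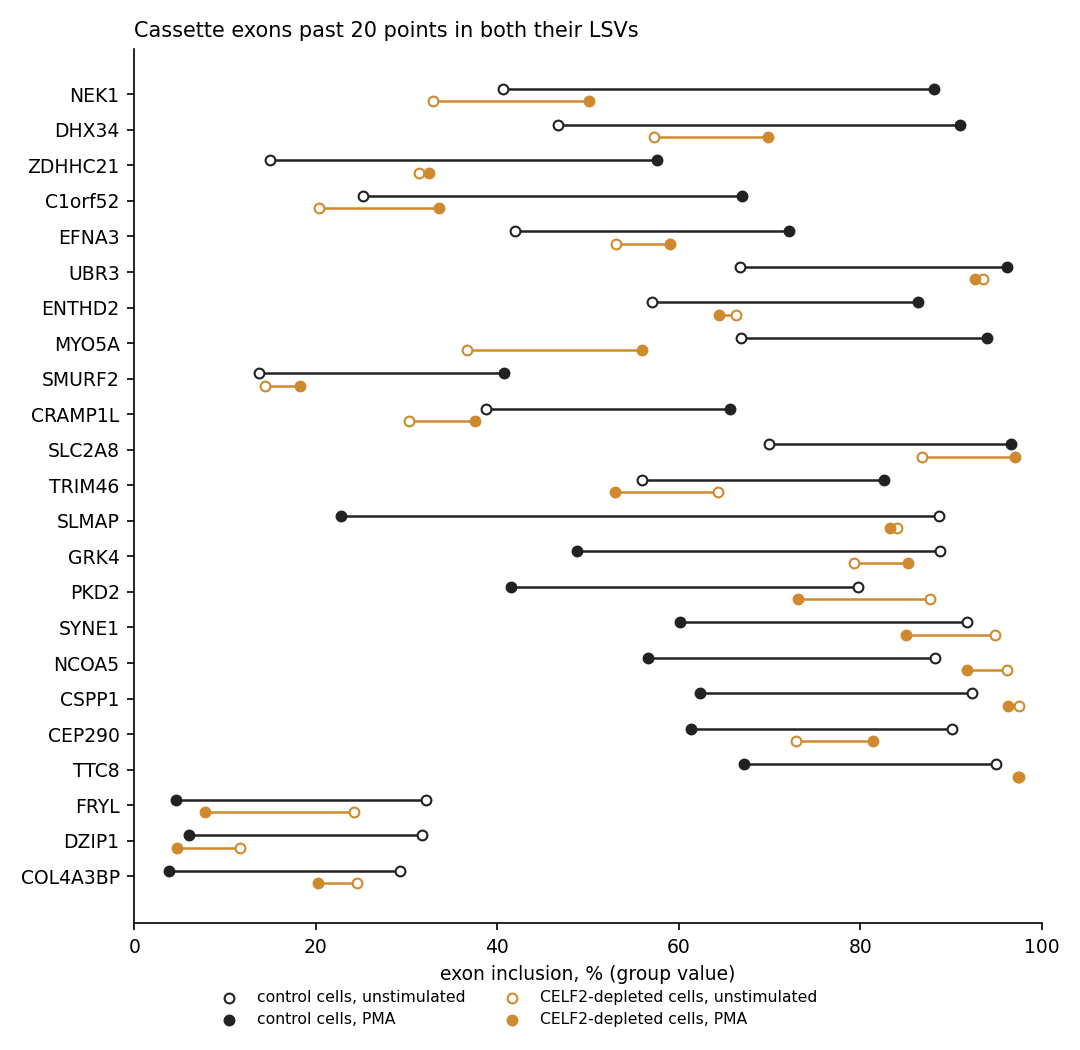
Inclusion of the 23 cassette exons described, 1 per gene, as group values in percent: open circles are unstimulated and filled circles PMA-treated cells, black for control and orange for CELF2-depleted cells. SLMAP shows the longest black line (88.7% to 22.8%) beside a short orange one (84.1% and 83.3%) and DHX34 differs in the same direction in both cells.

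To show what is gained or lost with these exons, their reference sequences were read from GENCODE v29 transcripts on GRCh38, matched by gene and by the lengths of the exon and of both flanking introns. A match was found for 20 of the 21 exons with higher and 17 of the 18 with lower inclusion. Of the matched exons 13 of the higher and 13 of the lower lay wholly in coding sequence of a listed transcript, and 10 and 6 of these had a length divisible by 3. The exons of NEK1, MYO5A and COL4A3BP, all of which keep the reading frame, are printed with that of SEC16A, described further on. Capitals mark the exon, and lower case the 15 bases of the neighbouring exons on either side. On GRCh38 they lie at chr4:169555720-169555851 (minus strand), chr15:52337810-52337884 (minus), chr5:75399310-75399387 (minus) and chr9:136445052-136445111 (minus).
NEK1: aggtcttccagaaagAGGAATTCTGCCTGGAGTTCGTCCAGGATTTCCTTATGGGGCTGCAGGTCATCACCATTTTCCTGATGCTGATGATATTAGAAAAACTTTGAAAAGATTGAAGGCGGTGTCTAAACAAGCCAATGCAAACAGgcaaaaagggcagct
MYO5A: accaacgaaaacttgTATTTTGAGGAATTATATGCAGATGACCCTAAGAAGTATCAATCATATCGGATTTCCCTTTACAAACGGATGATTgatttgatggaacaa
COL4A3BP: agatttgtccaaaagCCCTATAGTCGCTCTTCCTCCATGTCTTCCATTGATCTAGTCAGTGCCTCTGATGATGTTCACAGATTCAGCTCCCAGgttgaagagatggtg
SEC16A: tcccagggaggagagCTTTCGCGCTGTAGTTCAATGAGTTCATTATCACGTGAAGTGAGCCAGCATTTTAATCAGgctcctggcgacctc
Inclusion of the COL4A3BP exon separates the longer from the shorter known form of the ceramide transporter.

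Exons with a length divisible by 3 passed more often than those of other lengths. Whether the exons lie in coding sequence was not asked for this count, and their levels without PMA were not compared. Among exons with both LSVs, 35 of 1697 with a length divisible by 3 had a mean difference past the size (2.06%), 22 higher and 13 lower. Of 2114 with another length 21 did (0.993%), 10 higher and 11 lower. Exons that were higher had a median length of 111.5 nucleotides, those that were lower 76.0, and all 3811 a median of 112.0. Of the 72 exons with both LSVs and a length of up to 30 nucleotides none passed, against 56 of 3739 longer ones (1.5%). At that share 72 exons are too few to tell whether short exons differ from longer ones. Short exons with 1 LSV could pass: RAPGEF2, an exchange factor for the GTPase Rap, included a 24-nucleotide exon at 78.1% without and 50.3% with PMA.

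Retained introns were found with large differences in both directions. FGFR1OP2 had the largest higher value: its 149-nucleotide intron was retained at 32.8% without and 90.4% with PMA, against 40.7% and 29.3% in depleted cells. ITGA6, the integrin alpha 6 chain, retained a 93-nucleotide intron (hg19, chr2:173356060-173356152) at 10.1% without and 59.5% with PMA, and at 30.7% and 52.0% in depleted cells. KDM1A, a histone demethylase also called LSD1, stood at 27.0% and 67.8%, with 60.4% and 71.7% in depleted cells. PRPF40B, related to a yeast factor of the U1 particle, stood at 36.4% and 76.1%, with 43.8% and 80% in depleted cells.

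Of the remaining higher introns, ZNF195 (a zinc finger gene), RAB11FIP3 (an effector of the recycling GTPase Rab11) and XRCC3 (a DNA repair gene) differed by 46.9, 36.7 and 36.2 points. The 3 moved the same way by 23.4, 11.4 and 24.2 points in depleted cells. The named introns were chosen partly for a difference of at least 10 points the same way in depleted cells, so that their agreement is no result.

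Lower retention was led by GCHFR, which encodes the feedback regulator of GTP cyclohydrolase. Its 940-nucleotide intron (hg19, chr15:41058484-41059423) was retained at 94.9% without and 32.1% with PMA, and at 57.6% and 31.9% in depleted cells. SCART1, a scavenger receptor family gene, stood at 97.4% and 37.6%, and VPS9D1 at 93.0% and 33.2%. C19orf71 stood at 83.7% and 36.2%. HK2, the glycolytic enzyme hexokinase 2, retained a 526-nucleotide intron at 70.0% without and 23.6% with PMA. ASIC3, an acid-sensing channel, stood at 88.4% and 47.0%.

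**Figure D3:**
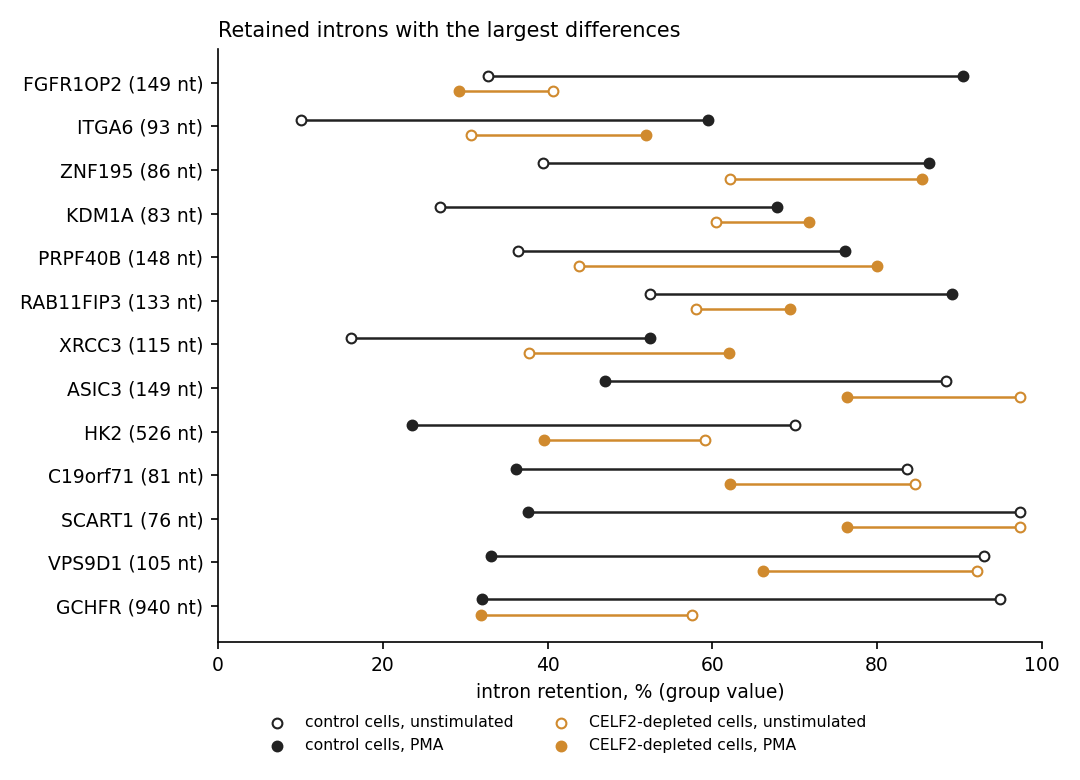
Retention of the named introns as group values in percent, with intron length beside the gene; open circles are unstimulated and filled circles PMA-treated cells, black for control and orange for CELF2-depleted cells. FGFR1OP2 is the 1 gene whose orange line runs against the black one (40.7% to 29.3%, against 32.8% to 90.4%). The other introns shown all met the rule of at least 10 points the same way in depleted cells, so their agreement is no result. Of all 186 introns past the size, 135 had the same sign in depleted cells.

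The direction of introns depended on which were counted. Of 7090 introns of up to 150 nucleotides 137 passed (1.93%), 85 lower and 52 higher. Of the 1939 longer ones 49 passed (2.53%), 27 higher and 22 lower, which is about even. Levels without PMA were not compared between the 2 lengths. When every listed intron was counted once, also those in LSVs of 3 or more choices, 252 of 14901 (1.69%) passed, 127 higher and 125 lower. At 10 points 699 of these introns were higher and 499 lower. In depleted cells 76 were higher and 116 lower at 20 points. Where both flanking exons had an LSV for the intron, 25 of 4324 (0.578%) passed in both, 14 higher (0.324%) and 11 lower (0.254%).

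Sequences of 3 introns are printed because they show what stays in the RNA when the intron is retained. They were matched by gene and intron length to a GENCODE transcript that keeps the intron, which was possible for 13 of 79 higher and 30 of 107 lower introns. All 13 and all 30 began with GT and ended with AG. A match required an annotated intron and no other introns were counted, so this is no result about PMA. Capitals mark the intron, with 15 bases of exon on either side, and the 3 lie between coding exons of a spliced transcript, on GRCh38 at chr12:49637585-49637732 (plus strand), chr10:133465175-133465250 (plus) and chr4:733790-733883 (plus). PCGF3, a subunit of Polycomb complexes, differed by -32.6 points in retention with PMA; it was chosen for its matched sequence after its value was seen.
PRPF40B: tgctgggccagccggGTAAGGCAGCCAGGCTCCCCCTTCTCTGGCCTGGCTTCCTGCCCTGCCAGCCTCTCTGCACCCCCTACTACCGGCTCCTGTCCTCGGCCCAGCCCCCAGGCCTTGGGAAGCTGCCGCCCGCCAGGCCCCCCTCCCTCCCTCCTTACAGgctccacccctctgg
SCART1: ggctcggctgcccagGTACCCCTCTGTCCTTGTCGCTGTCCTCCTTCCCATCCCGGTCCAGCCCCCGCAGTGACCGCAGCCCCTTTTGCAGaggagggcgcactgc
PCGF3: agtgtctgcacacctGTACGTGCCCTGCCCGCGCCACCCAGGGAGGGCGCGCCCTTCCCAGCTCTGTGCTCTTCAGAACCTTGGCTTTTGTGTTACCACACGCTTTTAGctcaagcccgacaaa
The lengths of the PRPF40B, SCART1 and PCGF3 introns (148, 76 and 94 nucleotides) are not divisible by 3.

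Alternative 5' splice sites, which move the end of an exon, were led, among coding genes, by PLD2, the signalling enzyme phospholipase D2. Use of the site that adds 33 nucleotides was 84.5% without and 38.5% with PMA, and 85.7% and 68.6% in depleted cells. In the other direction RPS28, a protein of the small ribosomal subunit, used the longer form at 10.9% without and 48.5% with PMA, for sites 5 nucleotides apart. BTAF1, a regulator of the TATA-binding protein, stood at 54.7% and 82.2%. PLA2G4B, a phospholipase, stood at 61.3% and 88.5%, and SAFB2, an RNA- and DNA-binding scaffold protein, at 15.6% and 42.4%. CHD9, a chromatin remodeller, used a site that adds 48 nucleotides at 73.1% without and 94.0% with PMA, and at 66.9% and 90.9% in depleted cells. The antisense transcript SLC16A1-AS1 had a larger difference, at 20.0% without and 72.9% with PMA and at 17.3% and 79.8% in depleted cells; genes that are not protein-coding were passed over by the rule for named genes.

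The remaining named 5' sites had differences of -20.0 to -27.2 points or of 23.3 points. SPATS2L used its longer form at 92.5% without and 65.3% with PMA, and WDR3, a factor of ribosome assembly, at 76.0% and 53.3%. ANKRD12 stood at 97.4% and 74.8%. CPT1B, a carnitine palmitoyltransferase of fatty acid oxidation, stood at 58.4% and 37.2%, with 71.6% and 47.6% in depleted cells. ERMAP, of the butyrophilin-like family, stood at 69.6% and 49.6%. CRAMP1L, which also had a cassette exon past the size, used the longer form at 39.7% without and 63.0% with PMA.

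Among alternative 3' splice sites, which move the start of an exon, FKBP1B and RALGAPB had the largest differences. FKBP1B, an immunophilin that binds calcium release channels, used a site that adds 45 nucleotides at 24.7% without and 63.5% with PMA, and at 27.6% and 40.3% in depleted cells. RALGAPB, a subunit of the GTPase-activating complex for Ral, used a site that adds 12 nucleotides at 58.3% without and 20.3% with PMA, with 55.0% and 48.3% in depleted cells. APC, the tumour suppressor of Wnt signalling, stood at 62.0% and 91.3% for the longer form. SPOPL, an adaptor of CUL3 ubiquitin ligases, differed in opposite directions, with 75.2% without and 44.0% with PMA in control and 50.6% and 73.2% in depleted cells.

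The kinase SIK3 used the longer form of its exon at 49.0% without and 74.0% with PMA. SMS, which makes spermine, stood at 73.3% and 46.9%, and FUK, a fucose kinase, at 94.2% and 71.7%. None of 489 pairs of 3' sites 3 nucleotides apart and none of 244 pairs 4 nucleotides apart reached 20 points. Of 2381 pairs farther apart 15 did (0.63%). At that share only a few of the close pairs would pass, and levels without PMA were not compared. Among 5' sites, 2 of 142 pairs 4 nucleotides apart did (1.41%), those of SAFB2 and ERMAP, against 26 of 1688 pairs farther apart (1.54%).

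The segments between the sites are shown for PLD2, CHD9 and RALGAPB, since the choice adds or removes whole codons in each. Capitals mark the segment that only the longer exon holds. On GRCh38 they lie at chr17:4819550-4819582, chr16:53307906-53307953 and chr20:38535074-38535085, all on the plus strand.
PLD2: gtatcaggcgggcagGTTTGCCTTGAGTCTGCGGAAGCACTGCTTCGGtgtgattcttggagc
CHD9: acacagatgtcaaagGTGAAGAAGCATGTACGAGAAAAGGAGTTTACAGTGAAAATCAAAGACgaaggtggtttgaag
RALGAPB: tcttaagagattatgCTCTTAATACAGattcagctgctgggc
In PLD2 and CHD9 the segment itself starts with GT, the letters of the 5' splice site that is used when the segment is left out.

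LSVs of 3 or more choices held the largest values of all, with the cautions on their choice of junction and on first and last exons given above. In TMEM99 the junction from 38984548 to 38989367 on chromosome 17 took 2.7% without and 97.5% with PMA, the whole range of the scale, and 3.5% and 7.5% in depleted cells. LIMS1, the adaptor PINCH1 that joins integrins to actin, used a junction of an LSV with 9 choices at 5.4% without and 92.2% with PMA, and at 2.5% and 14.5% in depleted cells. SEPT9, a septin of the cytoskeleton, used 1 of 15 choices at 78.2% and 15.9%. RNF166, a RING-type ubiquitin ligase, stood at 96.1% and 34.1%. ITGAE, the integrin chain CD103, used a junction at 20.0% without and 75.5% with PMA.

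HDAC7, a class IIa histone deacetylase, and NUDT4, which cleaves inositol pyrophosphates, differed in opposite directions. HDAC7 stood at 46.3% without and 89.8% with PMA. NUDT4 stood at 69.2% and 13.0%, and at 93.8% and 48.2% in depleted cells. The others named by rule were PTS (an enzyme of tetrahydrobiopterin synthesis), ZNF749, KIF21A (a kinesin), UVSSA (a factor of transcription-coupled repair) and WSB1. Of these, KIF21A stood at 39.9% without and 84.0% with PMA, and at 46.9% and 63.2% in depleted cells.

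Among LSVs that include an intron, GCHFR stood first again, with a junction into the exon after its retained intron at 10.9% without and 89.6% with PMA. ASPHD1 stood at 10.7% and 76.7%. GGCX, the vitamin K-dependent carboxylase, used a junction at 89.0% without and 24.4% with PMA. STARD5, a lipid transfer protein, stood at 93.4% and 34.4%, and PORCN, which acylates Wnt proteins, at 65.2% and 12.5%, with 85.8% and 43.6% in depleted cells. LUC7L, related to a yeast component of the U1 particle, used a junction of an LSV with 9 choices at 71.3% without and 25.6% with PMA.

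Also named were the junctions of TBC1D4 (a Rab GTPase-activating protein, 55.1% without and 9.6% with PMA), PCYT2 (an enzyme of phosphatidylethanolamine synthesis, 10.5% and 52.8%) and MMS22L (a factor of replication fork repair, 6.2% and 51.6%). In FAM177A1 the choice with the largest difference was the intron, at 59.5% and 8.7%, and in CCNI2 it was also the intron, at 50.8% and 97.1%. XRCC3, whose retained intron was named above, used a junction of another LSV at 82.5% and 37.0%, against 47.7% and 37.2% in depleted cells.

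A list of genes whose splicing had been described to respond to T cell activation was examined next; it was drawn up from general knowledge with results of these data in view. Of 25 such genes measured, 10 had an event past 20 points (40.0%) and 21 one past 10 points (84.0%), against 14.4% and 40.8% of all genes measured. Genes of the list had a median of 12 events each, against 6.0 for all genes, and genes with more events pass more often. The share past 20 points was 8.3% for genes with 1 to 5 events, 16.0% with 6 to 10, 22.5% with 11 to 20 and 27.6% with more.

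Its signalling genes were TRAF3, MAP3K7 and MAP2K7. TRAF3, an adaptor that restrains the non-canonical NF-kappaB pathway, used the junction that skips an exon (hg19, chr14:103352606-103357662) at 5.0% without and 34.9% with PMA in the source and at 6.5% and 35.4% in the target LSV. In depleted cells that junction stood at the floor of 2.5% in both states. MAP3K7, the kinase TAK1, used a skipping junction at 72.1% without and 97.3% with PMA in the source and at 69.4% and 90.6% in the target LSV. MAP2K7, which activates the kinase JNK, used the junction into an alternative exon at 58.9% without and 37.0% with PMA, and at 82.6% and 78.2% in depleted cells. The junction out of that exon, in the target LSV, stood at 47.0% and 30.7% in control cells, a difference below the size.

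SEC16A, which organises the sites where vesicles leave the endoplasmic reticulum, included the 60-nucleotide exon printed above at 43.2% without and 11.1% with PMA in the LSV of the exon before it. In depleted cells inclusion was 54.6% and 65.4%, a difference in the other direction. CD47, a surface protein that inhibits phagocytosis, retained an intron at 20.3% without and 41.1% with PMA in the source LSV. In the target LSV the same intron stood at 61.3% and 77.3%, a difference of 16.0 points, below the size. In depleted cells it stood at 8.8% and 17.0% in the source and at 47.7% and 66.3% in the target LSV.

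The list's RNA-binding proteins and their kinase were CELF2, CELF1, TIAL1, HNRNPC and CLK1. In CELF2 5 of 11 events passed, and the largest was a junction at 91.0% without and 24.5% with PMA in control cells. In CELF1 a junction stood at 90.8% and 62.6% in the target LSV, and at 77.9% and 66.2% in the source LSV, which is below the size. TIAL1, a protein that binds uridine-rich sequences and stabilises U1 at 5' sites, used a junction at 43.5% without and 71.1% with PMA, and at 31.0% and 50.2% in depleted cells. HNRNPC chose between nearby 5' sites, 1 of which took 58.6% without and 80.3% with PMA, and 47.5% and 49.5% in depleted cells. CLK1, a kinase of SR proteins, retained an intron at 58.5% and 80.5% in a source LSV, against 75.5% and 58.3% in depleted cells. In a target LSV the same intron stood at 41.4% and 58.7%, a difference of 17.3 points, below the size.

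The other 15 genes of the list stayed below 20 points. PTPRC used the junction from exon 6 to exon 7 (hg19, chr1:198671659-198672427) at 69.0% without and 50.3% with PMA, and at 71.9% and 33.0% in depleted cells. The junction from exon 3 to exon 7, which skips all 3 variable exons, stood at 2.8% and 11.8%, and at 2.5% and 23.2% in depleted cells. LEF1, a transcription factor of the Wnt pathway, included an exon at 85.0% without and 97.5% with PMA in the target LSV, and at 85.0% and 86.7% in depleted cells. In MALT1, the protease of NF-kappaB signalling, the longer form at a 5' site stood at 7.1% and 24.3%. In the kinase FYN the junction into 1 of the alternative exons stood at 76.4% and 75.3%, that into the other at 23.0% and 14.7%, and the junction that skips both at 2.5% and 9.9%.

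Gene lists by function, also chosen with earlier results of these data known, were compared with the same background of 14.4%. Lists of RNA-binding proteins stood above it: 21 of 71 hnRNPs and other splicing regulators (29.6%) and 8 of 34 SR proteins and their kinases (23.5%) had an event past 20 points. Core spliceosome proteins stood below it, with 5 of 74 (6.76%). The median number of events per gene was 12, 9.5 and 7.0 in these lists, against 6.0 over all genes. Of genes of nonsense-mediated decay and RNA turnover, 7 of 53 passed (13.2%). With 2-choice events alone, which leave out the choice of the largest junction, 77 of 1103 genes of all lists together passed (6.98%), against 5.75% of all genes. On that count the splicing regulators (9 of 70, 12.9%) and SR proteins (4 of 33, 12.1%) stood above the background and the core spliceosome (2 of 69, 2.9%) below it, and the decay list stood above it (5 of 52, 9.62%).

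Within the splicing regulators, besides CELF2 and LUC7L, PTBP2, a relative of the polypyrimidine tract-binding protein, used a junction at 40.7% without and 2.5% with PMA. HNRNPK retained an intron at 36.1% and 73.5%, against 42.4% and 38% in depleted cells. Among SR proteins SRSF6 used a junction of an LSV with an intron at 75.7% without and 31.9% with PMA, and SRSF1 at 78.0% and 45.5%. TRA2A, a splicing activator related to them, stood at 96.5% and 67.9%. In depleted cells the SRSF6 junction stood at 73.1% and 67.7% and that of SRSF1 at 80.8% and 65.2%.

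In the spliceosome list PRPF40B, described above, had the largest difference, followed by SNRNP27 with an intron retained at 67.2% without and 44.3% with PMA, and by PRPF3, a protein of the tri-snRNP, at 80.6% and 58.1%. PRPF40B had 7 of its 23 events past the size, more than any other protein-coding gene. In the decay list UPF3B, which joins the exon junction complex to the decay machinery, used a junction at 65.7% and 97.4%. STAU2, a binder of double-stranded RNA, stood at 80.1% and 56.8%, and TTC37, of the complex that feeds the exosome, retained an intron at 10% and 33.3%.

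**Figure D4:**
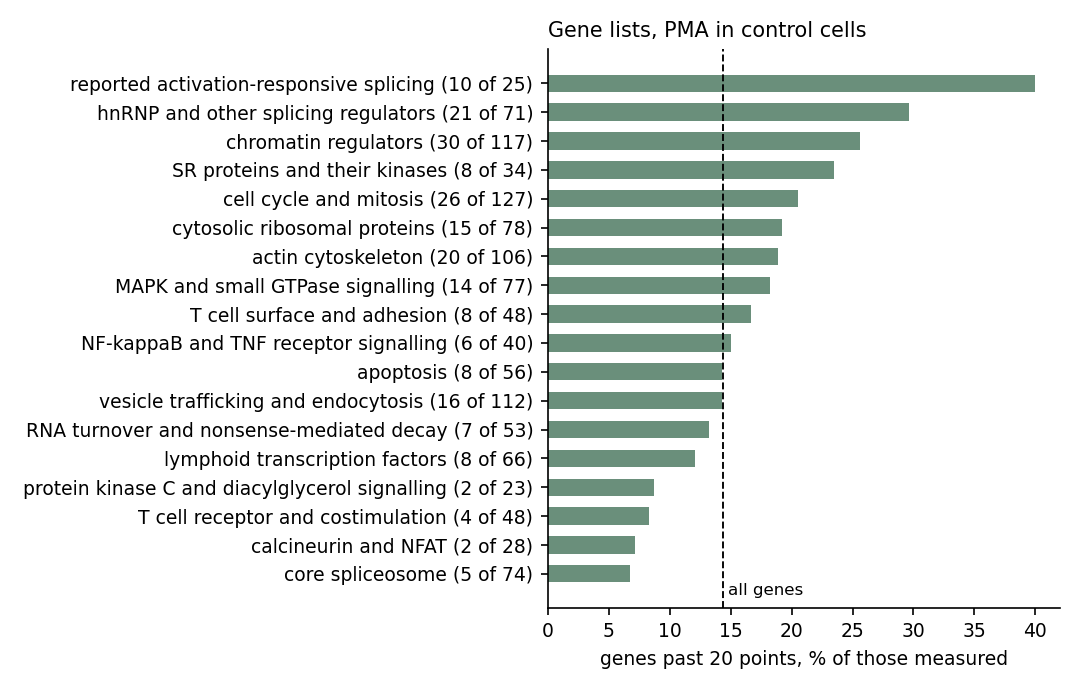
Share of measured genes with at least 1 event past 20 points in control cells, for each gene list (bars, with counts beside the name) and for all genes (dashed line, 14.4%). The list of reported activation-responsive splicing stands highest at 40.0%, and core spliceosome lowest at 6.76%. All lists were chosen with earlier results of these data known.

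Of the signalling lists, MAP kinase and small GTPase signalling had 14 of 77 genes past 20 points (18.2%), with a median of 9.0 events per gene. Of protein kinase C and diacylglycerol signalling 2 of 23 passed (8.7%), of T cell receptor and costimulation 4 of 48 (8.33%), of calcineurin and NFAT 2 of 28 (7.14%), and of NF-kappaB and TNF receptor signalling 6 of 40 (15%). At 10 points the protein kinase C list stood above the background instead, with 11 of 23 (47.8%) against 40.8% of all genes. The 2 of the first list were PLCG2, a phospholipase that makes diacylglycerol, at 95% without and 49.2% with PMA, and DGKE, a kinase that removes it, at 55.9% and 83.2%. LCK, the Src family kinase of the T cell receptor, used a junction of a target LSV (hg19, chr1:32716972-32739926). It stood at 2.5%, the floor of the scale, without and at 29.1% with PMA. PIK3CD, a phosphoinositide 3-kinase subunit, stood at 94.5% and 67.5%, and CBLB, a ubiquitin ligase that dampens receptor signalling, at 52.0% and 74.6%.

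NFAT5 and NFATC4, both transcription factors of the NFAT family, were the 2 of the calcineurin list, at 39.0% without and 13.4% with PMA and at 92.6% and 71.6%. In the MAP kinase and GTPase list the largest values were those of ARHGEF3 (16.7% and 81.8%), an exchange factor of small GTPases, of NF1 (41.1% and 84.2%), which turns Ras off, and of ARHGAP17 (43.7% and 4.2%), which turns small GTPases off. In depleted cells these stood at 28.6% and 28.4%, at 11% and 13.7%, and at 48.2% and 34.3%. TANK, which binds TRAF proteins, stood at 15.6% and 38.2% and was the third of the NF-kappaB list after TRAF3 and MAP3K7.

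Among nuclear genes, 30 of 117 chromatin regulators (25.6%, with a median of 13.0 events per gene) and 26 of 127 genes of cell cycle and mitosis (20.5%) passed, and 8 of 66 lymphoid transcription factors (12.1%). Chromatin regulators were led by HDAC7 and KDM1A, given above, and by BPTF, a subunit of a nucleosome remodeller, at 57.5% without and 96.0% with PMA. MAX, the partner of MYC, used a junction at 73.6% and 30.5%, and at 92.6% and 51.3% in depleted cells. SATB1, an organiser of T cell chromatin, stood at 68.7% and 28.7%, against 26.8% and 28.2% in depleted cells. NOTCH3, a receptor counted in the same list, included an exon at 56.7% and 96.2%, read in a source LSV alone. After NEK1, the cell cycle list held CDK12, a kinase of RNA polymerase II, at 58.8% and 17.9%, and the kinetochore motor CENPE at 2.7% and 40.4%.

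Of genes that act in the cytoplasm or at the surface, 20 of 106 of the actin cytoskeleton (18.9%), 15 of 78 cytosolic ribosomal proteins (19.2%), 8 of 48 T cell surface and adhesion genes (16.7%), 16 of 112 of vesicle trafficking (14.3%) and 8 of 56 of apoptosis (14.3%) passed. With 2-choice events alone the actin (4 of 104, 3.85%) and surface lists (2 of 46, 4.35%) stood below the background of 5.75%, and the ribosomal list (7 of 66, 10.6%) above it. After LIMS1, SSH2, a phosphatase that activates cofilin, included an exon at 17.1% without and 62.2% with PMA, read in a target LSV alone. Such an exon may be an alternative first or last exon. PPP1R12A, which brings a phosphatase to myosin, stood at 56.4% and 12.6%. RPL21 and RPS14, of the large and small ribosomal subunits, stood at 82.4% and 40.9% and at 48.6% and 83.4%. Both have processed pseudogenes. No source used here says how reads shared with such copies were placed, so these values are uncertain.

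CD1D, which presents lipids to T cells, used a junction at 59.8% without and 93.1% with PMA, after ITGAE and ITGA6 in its list. EXOC7, of the exocyst, stood at 41.5% and 77.4%, and at 25.5% and 61.2% in depleted cells. STX2, a syntaxin, included an exon at 9.7% and 44.5%, read in a source LSV alone. In the apoptosis list PDCD6 retained an intron at 76.8% and 41.6%, and CFLAR, which blocks caspase 8, used a junction at 11.1% and 39.3%.

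CELF2-depleted cells, measured in other libraries, were set beside the control cells for the same 2132 events. The difference had the same sign in 1503 of them (70.5%). It reached 10 points the same way in 756 (35.5%) and 10 points the other way in 164 (7.69%), and was within 10 points in 1212 (56.8%). Over all 78874 events, 7.95% differed by 10 points or more in depleted cells, in either direction. That share was 10.1% and 11.8% for LSVs of 3 or more choices without and with an intron. In the other classes it was 4.15% to 7.77%. Of the 2132 events 1382 lay between 20% and 80% without PMA, against 9452 of all 78874. The sets thus differ in level and in class, and no background matched for these was counted. Over the 2132 events the median size of the difference was 25.0 points in control cells, where they were chosen for it. In depleted cells it was 5.6 points in the same direction. What part the choice by size and what part depletion had in this gap was not tested.

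By class, the same sign was seen in 135 of 186 retained introns (72.6%) and in 196 of 289 cassette exons (67.8%). It was seen in 23 of 28 alternative 5' sites (82.1%) and in 7 of 15 alternative 3' sites (46.7%), which are too few to compare classes. The share with the same sign over all events measured was not counted. Of the 39 cassette exons past the size in both LSVs, 30 had the same sign, 15 reached 10 points the same way and 2 the other way. Past 20 points, 1214 of 78874 events (1.54%) differed in depleted cells, 270 of them among the 2132 with the same direction and 31 among them with the opposite one.

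**Figure D5:**
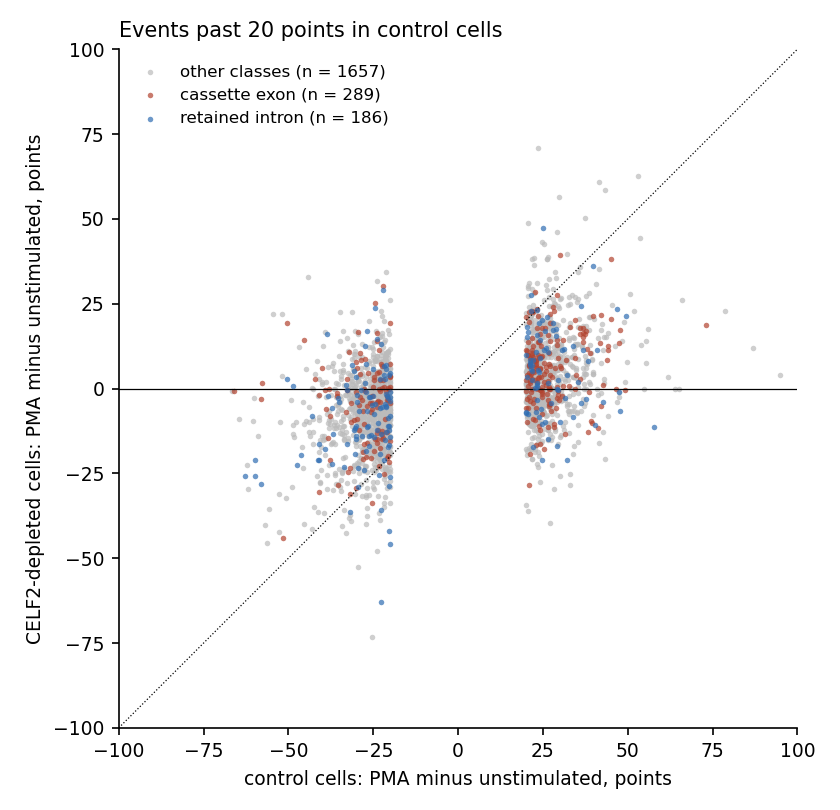
Difference between PMA-treated and unstimulated cells, in percentage points, in control (horizontal axis) and CELF2-depleted cells (vertical axis) for the 2132 events past 20 points in control cells, which leaves the middle of the horizontal axis empty; cassette exons are red, retained introns blue and other classes grey. Points on the dotted line differ equally in both; most lie nearer to 0 on the vertical axis, and 1503 of 2132 have the same sign in both.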

How the data were processed

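Polyadenylated RNA was sequenced from 2 libraries of each of 4 groups. The authors deposited 1 table for unstimulated and 1 for PMA-treated cells, whose columns, per the file headers, give for each local splicing variation the expected share (PSI, a fraction) of every junction in each group, as 1 value over both libraries. STAR (2.5.1b) and hg19 are named, without a role, in the submitters' processing notes. No source used here names the quantifier's version or the annotation. There were 0 unused per-sample columns, and depth is unknown.

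The tables were joined on identical identifiers and junctions, and differences were taken in percentage points (pandas 2.3.3, numpy 2.4.6, matplotlib 3.10.9 on Python 3.11.15). Values of LSVs that describe the same event were averaged. With 1 value per group no test was possible, and the counting was tested on simulated data. For 2-choice LSVs the value is that of the inclusion junction, the intron or the junction giving the longer exon. The rule for named genes took the 12 largest differences in each direction among cassette exons past 20 points in both LSVs. In the other classes it took the 2 largest in each direction and the 6 largest with at least 10 points the same way in depleted cells. It also took every reported activation-responsive gene past 20 points and the 3 largest of each other list, and passed over genes without a symbol, genes that GENCODE v29 does not list as protein-coding and events shared by overlapping genes. HNRNPK, PCGF3, RAPGEF2, SLC16A1-AS1, the genes of the reported list below 20 points and those first named in the closing section fall outside this rule and were chosen after their values were seen. On the minus strand the source or target word of an LSV identifier and the letter of its type disagreed, and the letter, which follows transcription, was used. Some items that the rule takes are not reported here. Members and lists were chosen with earlier results of these data known. Alternatives were another size, LSVs without de novo junctions, source or target LSVs alone, events at 20% to 80% without PMA, and 2-choice LSVs alone.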

Additional observations from a re-analysis of the deposited data

How the results depend on the processing

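No paired analysis was possible because each group has 1 value for its 2 libraries, and for the same reason no library could be left out. At a size of 10 points 8485 events passed (1094 cassette exons, 111 alternative 5' and 125 alternative 3' sites, 726 retained introns, 397 other 2-choice LSVs, and 3650 and 2382 LSVs of 3 or more choices without and with an intron), with 525 genes of the lists. At 30 points 543 did (77, 4, 3, 57, 22, 238 and 142 in the same order). Without LSVs that hold a de novo junction 661 events passed, 331 of them with 3 or more choices, and more were higher (369) than lower (292), whereas over all LSVs more were lower; no intron class has a value there, since every intron LSV has that mark. Cassette exons numbered 182 from source LSVs alone, 166 from target LSVs alone and 39 where both were required. Among events at 20% to 80% without PMA the percentage that was higher was 50.8 for retained introns, 59.7 for other 2-choice LSVs, 53.0 for LSVs of 3 or more choices without an intron and 52.2 over all, against 42.5, 48.5, 48.0 and 47.7 over all levels. With 2-choice LSVs alone 77 genes of the lists passed (6.98%, against 5.75% of all genes). The share of events at least 10 points the same way in depleted cells, an alternative added after seeing the data, was 36.1% over 2-choice LSVs alone and 35.5% over all. Depth per junction is unknown, so events with few reads could not be told from the rest.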

Other observations

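Events that moved far in the same direction in both kinds of cell, 270 of the 2132 in 220 genes, included choices that the named classes leave out. ZNF37A, a zinc finger gene, used a junction of a 2-choice LSV at 41.7% without and 95.3% with PMA in control cells and at 28.3% and 72.7% in depleted cells. FBRSL1, related to a Polycomb-associated protein, included a 184-nucleotide exon, read in a target LSV alone, at 91.3% and 39.8%, and at 69.4% and 25.4% in depleted cells. EVL, an Ena/VASP protein that acts on actin filament ends, used a junction at 55.4% and 96.8%, and at 22% and 83.0% in depleted cells. MYADM, a membrane protein of the myeloid-associated differentiation marker family, stood at 20.7% and 58.0%, and at 32.3% and 82.7%.

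Events that moved 20 points in opposite directions in the 2 kinds of cell numbered 31. RABL2A, a small GTPase of cilia, used a junction at 51.8% without and 7.7% with PMA in control cells and at 25.4% and 58.4% in depleted cells. SIN3B, a scaffold of histone deacetylase complexes, retained an intron at 47.8% and 74.9% in control cells and at 82.9% and 43.4% in depleted cells. MOK, a kinase related to MAP kinases, retained an intron at 60.0% and 5.4%, against 41.5% and 63.6%. WDR4, part of a tRNA methyltransferase, used a junction at 61.0% and 9.2%, against 50.7% and 72.7%. All of these have 3 or more choices, and none of the differences could be tested.

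After PRPF40B, the genes with the most events past 20 points were CELF2 (5 of 11), LUC7L (5 of 14), the nucleoside transporter SLC29A2 (5 of 14), ZMIZ2 (5 of 14) and HMBOX1 (5 of 16). Events of 1 gene share junctions and are not independent of each other.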
